A study of Homo sapiens with 6 samples.

Results

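The EGR, KLF and IER immediate-early factors followed here are 10 genes of the 58174 in the deposited mRNA-seq table: EGR1, EGR2, EGR3, KLF2, KLF4, KLF6, KLF9, KLF10, IER2 and IER3. They were chosen by name, and every one of them has a row in the table. The libraries were made from KNS42, a cell line that was established from a glioblastoma (GBM) of a child, grown in DMEM with 10% fetal bovine serum. One group received a control siRNA (siC, n = 3) and the other a pool of siRNAs against MSI1 (siMSI1, n = 3), and RNA was taken 72 h post-transfection. MSI1 is an RNA-binding protein of neural stem and progenitor cells, and the comparison asks how its loss changes mRNA abundance. The cells of both groups were transfected and kept in serum, and no serum starvation or restimulation is given in the labels. The values are therefore read as levels at 72 h in serum and not as a timed induction. Growth and stress of the cells were not measured in these libraries. Nothing in the labels says whether the libraries of a group came from separate cultures, so the p-values measure only the spread between these libraries, which may be technical. The data describe 1 cell line and 1 siRNA pool, and in bulk RNA fewer cells with an mRNA cannot be told apart from less of it per cell.

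Immediate-early genes are transcribed within minutes after growth factors or stress reach a cell, without new protein synthesis, and their mRNAs are usually short-lived. The signal commonly runs through ERK kinases to serum response factor (SRF) and its ELK partners, which bind the CArG box, the core of the serum response element. EGR factors bind GC-rich DNA through C2H2 zinc fingers and are held in check by the corepressors NAB1 and NAB2. KLF factors carry related zinc fingers for GC boxes and CACCC motifs, and include activators and repressors of growth. IER2 and IER3 are small early response proteins without zinc fingers.

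The CArG boxes of the EGR promoters are shown because they are the sequence through which serum and ERK signals reach these genes. RefSeq promoter windows (GRCh38.p14, 250 bases before to 50 bases after a start site) were matched for 7 of the 10 genes. The CArG box was searched as CC, then 6 letters that are A or T, then GG. Boxes with a mismatch, or outside these windows, were not searched for. A match lay in the EGR1 window and in 1 of the 3 EGR2 windows. None lay in the windows of KLF2, KLF4, KLF6, KLF9 and IER2. Of all 35116 windows, 1.29% held one on either strand. The capitals mark the box, the sequences run 5′ to 3′ on the strand of the gene, and the positions include 10 bases on each side.
EGR1, chr5:138465364-138465393, plus strand: gccggtcctgCCATATTAGGgcttcctgct
EGR1, chr5:138465386-138465415, plus strand: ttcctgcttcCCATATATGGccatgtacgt
EGR2, chr10:62816418-62816447, minus strand: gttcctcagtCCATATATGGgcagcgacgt
The EGR1 boxes start 105 and 83 bases before the start site, and the EGR2 box starts 71 bases before the start site of its window. The second EGR1 box and the EGR2 box have the same 10 letters. The letters TGACG, the core of the cyclic AMP response element, were found 2 times in each of these windows and in that of KLF4, 1 time in that of IER2, and in 24.6% of all windows. The GC box GGGCGG, a word bound by SP and KLF factors, was found 6 times in the KLF2 window, 4 times in each of those of KLF4 and IER2, 2 times in that of KLF6, 2 and 4 times in the other EGR2 windows and 0 times in those of EGR1 and KLF9, and in 45.0% of all windows. The EGR site, searched as GCGTGGGCG or GCGGGGGCG, was found 1 time in each of the KLF2 and KLF6 windows and in 5.77% of all windows. These are matches of letters on both strands, a TGACG or GC box can overlap another word, and binding was not measured.

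The table gives FPKM, which is reads scaled to gene length and library size, so levels of different genes can be compared. The reads behind each value were recovered as whole numbers and summed to 13087025 to 18024080 per library. MSI1 itself was lower in each siMSI1 library (11.2 to 12.3 FPKM) than in any siC library (61.9 to 66.9 FPKM), with a log2 change of −2.43 (limma adjusted p = 8.7e-06). The progenitor and glioma markers VIM, NES, SOX2 and CD44 were at or above 57.7 FPKM in every library, while the astrocyte marker GFAP was at 1.33 to 1.99 FPKM in siC and at 4.14 to 5.04 FPKM in siMSI1. Together these 5 markers summed to 1450 to 1517 FPKM in siC and to 1210 to 1314 FPKM in siMSI1, and most of that was VIM. The sum of 3 neuronal markers was 12.7 to 13.8 and 8.19 to 9.63 FPKM. Nearly all of it was SYP, at 12.3 to 13.6 FPKM in siC and 8.07 to 9.54 FPKM in siMSI1. The summed level of 3 immune markers was 0.159 to 0.209 FPKM in siC and 0.248 to 0.534 FPKM in siMSI1, that of 3 endothelial markers 0 to 0.0510 and 0.172 to 0.301 FPKM, and that of 3 epithelial markers at most 1.40 and at most 1.51 FPKM. RBFOX3, the neuronal nuclear marker, and AIF1, a microglial marker, were at 0 in all libraries. The part of these markers in the differences given next was not tested.

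In siC cells 5 of the genes were at several FPKM and the other 5 were near or below 1 FPKM. KLF6, a serum-induced zinc finger factor known as a growth suppressor, had the highest level with a mean of 20.0 FPKM. IER2 followed at 15.2 FPKM, KLF9 at 8.01 FPKM, EGR1 at 6.71 FPKM and KLF10 at 4.91 FPKM. KLF2 was at 0.960 FPKM, EGR3 at 0.561 FPKM and EGR2 at 0.473 FPKM. IER3 and KLF4 were close to 0. In siC the ranges of neighbours in this order overlapped for KLF9 and EGR1, KLF2 and EGR3, EGR3 and EGR2, and IER3 and KLF4. Within every siC library, however, KLF9 was above EGR1, KLF2 above EGR3 and EGR3 above EGR2. EGR3 and EGR2 were nearly equal in siC replicate 3 (0.472 and 0.471 FPKM), and IER3 was below KLF4 only there. No test of gene against gene was run. In siMSI1 the order of the means was the same, but there the ranges of KLF6 and IER2 overlapped while those of KLF2 and EGR3 did not. The summed level of the 10 genes was 56.9 ± 3.04 FPKM in siC and 59.3 ± 3.49 FPKM in siMSI1 (SD, n = 3 each). The ranges of the groups overlapped (53.5 to 59.5 and 56.4 to 63.2 FPKM). This sum is a description with no test, and KLF6 and IER2 make up most of it.

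**Figure D1:**
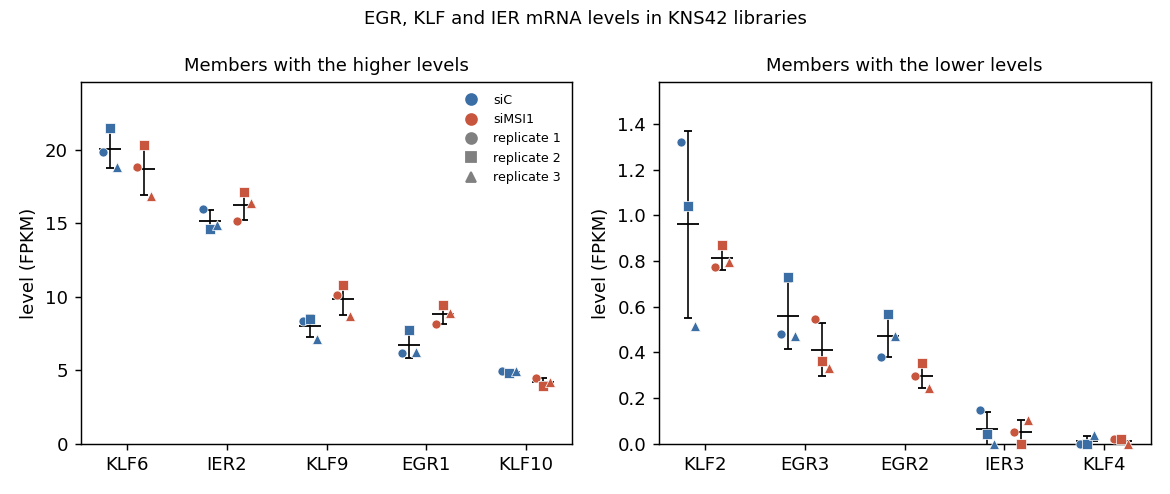
Level in FPKM of each gene in each library (siC in blue, siMSI1 in red, marker shape by replicate number), with the mean and the SD of 3 libraries as black bars. The left panel holds the genes from KLF6 at 20.0 FPKM to KLF10 at 4.91 FPKM in siC and the right panel those from KLF2 downwards, and in EGR1, EGR2, KLF9 and KLF10 the groups do not overlap.

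Upon MSI1 knockdown none of the 6 genes that were high enough to be tested passed the threshold, an adjusted p of 0.01 in limma. The study applied the same level to an edgeR fit, whose calls were not used here. EGR1 and KLF9 were higher and EGR2 and KLF10 were lower in every siMSI1 library than in every siC library, while KLF6, IER2, KLF2 and EGR3 overlapped between the groups. Tested with limma, on log2(FPKM + 0.1), were the 15069 genes whose mean over all libraries reached 0.5 FPKM, with Benjamini-Hochberg adjustment over all of them. 6 of the 10 genes passed that filter (EGR1, KLF2, KLF6, KLF9, KLF10 and IER2), and EGR2, EGR3, KLF4 and IER3 did not. Of the 6 tested, 0 were past the threshold, where 11.0% of all tested genes were (5.15% higher and 5.83% lower). At an adjusted p of 0.05 there was 1 of 6, EGR1, against 25.1% of all tested genes (12.2% higher and 12.9% lower). At an unadjusted p under 0.05 there were 3 of 6 (EGR1, KLF9 and KLF10), against 38.3% of all tested genes, and limma's voom on the recovered reads called 0 of 6, against 18.7%. With the replicate number as a further term voom called 2 of 6 (EGR1 and KLF9), against 32.7%, and limma with no filter on low genes called 0 of the 10, against 2.65% of 29846 genes. The groups did not overlap for 3 of the 6, 2 higher and 1 lower, against 42.8% of all tested genes (21.4% higher and 21.5% lower). The median log2 fold change of the 6 was −0.0051, against 1.5e-05 over all tested genes. With 6 genes these counts do not set the genes apart from the background shares.

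EGR1 (ENSG00000120738, chromosome 5 of GRCh38 from 138465479 to 138469303, plus strand) encodes the founding EGR factor, a rapid transcriptional relay of growth factor signals. Replicates 1 to 3 gave 6.17, 7.73 and 6.22 FPKM for siC, and 8.13, 9.41 and 8.85 FPKM for siMSI1. All siMSI1 libraries were higher, with siC replicate 2 the closest to them. The siMSI1 mean was 131% of the siC mean (8.80 ± 0.641 against 6.71 ± 0.888 FPKM, SD, n = 3 each), from 281 to 439 reads per library. The log2 fold change was 0.39 (standard error 0.109, 95% interval 0.14 to 0.64, adjusted p = 0.0348 from limma), which is past 0.05 but not past 0.01. In the fits that left out 1 library it lay between 0.34 and 0.50 with adjusted p-values from 0.0157 to 0.124, and it was past 0.05 only without siC replicate 2 (0.0157) or siMSI1 replicate 1 (0.0498). No annotated gene overlaps EGR1.

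EGR2 (ENSG00000122877, chromosome 10 from 62811996 to 62819167, minus strand), an EGR factor known for its role in myelination and hindbrain patterning, had lower values upon knockdown. It was measured at 0.380, 0.569 and 0.471 FPKM in the siC libraries and 0.294, 0.352 and 0.245 FPKM in the siMSI1 libraries. Every siMSI1 library lay below every siC library, with 21 to 38 reads for siC against 13 to 17 for siMSI1. The siMSI1 mean was 62.7% of the siC mean. In voom on the recovered reads with no filter on low genes, chosen after the data were seen, its log2 fold change was −0.67 (95% interval −1.39 to 0.048, adjusted p = 0.242). The lncRNA gene ENSG00000289487 overlaps EGR2 on the same strand in GENCODE release 44, and was not analysed here.

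EGR3 (ENSG00000179388, chromosome 8 from 22687659 to 22693480, minus strand), an EGR factor of muscle spindles and lymphocytes, was measured at 0.481, 0.729 and 0.472 FPKM in the siC libraries and 0.545, 0.361 and 0.330 FPKM in the siMSI1 libraries. siMSI1 replicate 1 lay within the siC range and the other siMSI1 libraries lay below it. Its log2 fold change in the same voom fit was −0.46 (95% interval −1.06 to 0.15, adjusted p = 0.374) on 23 to 64 reads per library, so a change of either sign was within its interval. The ratio of EGR1 to EGR2 was 16.2, 13.6 and 13.2 in siC and 27.6, 26.8 and 36.1 in siMSI1. The ratio of EGR1 to EGR3 was 12.8, 10.6 and 13.2 in siC and 14.9, 26.0 and 26.8 in siMSI1. These ratios were chosen after the values of the genes were seen, so they are given as a description with no test, and the separation of EGR1 to EGR2 follows from the levels of both genes. The remaining EGR gene, EGR4, named for the same reason, had 4, 4 and 2 reads in siC and 0, 1 and 0 in siMSI1, which is at or near the floor of 3 reads.

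**Figure D2:**
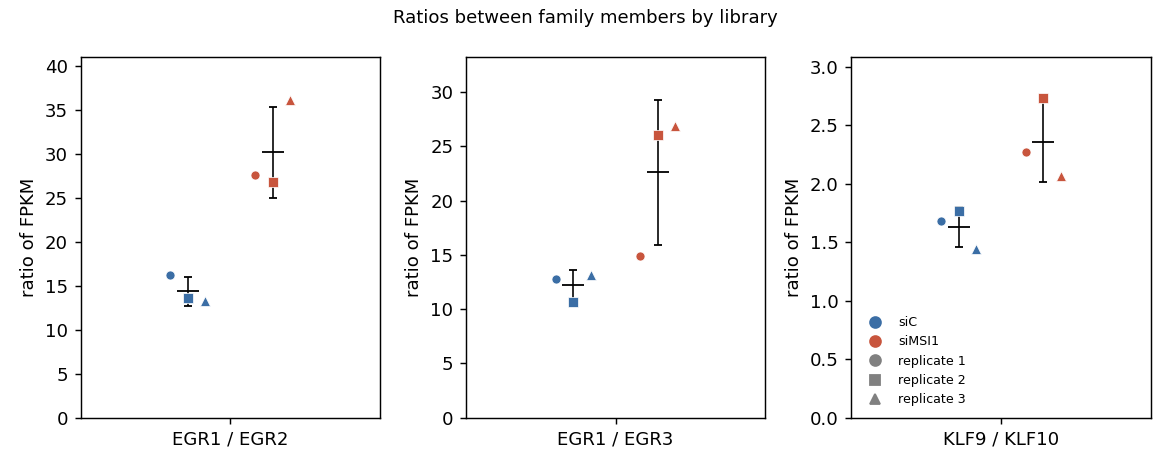
Ratio of FPKM of EGR1 to EGR2, EGR1 to EGR3 and KLF9 to KLF10 in each library (siC in blue, siMSI1 in red), with the mean and the SD of 3 libraries. All axes start at 0, and in each panel every siMSI1 library lies above every siC library, with no test, from a mean of 14.3 to 30.2 for EGR1 to EGR2 and from 1.63 to 2.36 for KLF9 to KLF10.

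KLF9 (ENSG00000119138, chromosome 9 from 70384604 to 70414657, minus strand) is a target of glucocorticoid and thyroid hormone receptors that restrains proliferation of neural progenitors. It was measured at 8.37, 8.50 and 7.15 FPKM in the siC libraries and 10.1, 10.8 and 8.67 FPKM in the siMSI1 libraries. The groups did not overlap, but siMSI1 replicate 3 lay only just above siC replicate 2. The siMSI1 mean was 123% of the siC mean, with 532 to 796 reads per library. The log2 fold change was 0.30 (standard error 0.108, 95% interval 0.046 to 0.55, adjusted p = 0.0820 from limma), and the adjusted p lay between 0.0284 and 0.216 when 1 library was left out.

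KLF10 (ENSG00000155090, chromosome 8 from 102648784 to 102655725, minus strand), first described as a TGF-β-inducible early gene that represses SMAD7, was measured at 4.97, 4.81 and 4.95 FPKM in the siC libraries and 4.46, 3.94 and 4.19 FPKM in the siMSI1 libraries. The siC libraries were close together and all siMSI1 libraries lay below them. The siMSI1 mean was 85.5% of the siC mean. The log2 fold change was −0.22 (standard error 0.085, 95% interval −0.42 to −0.025, adjusted p = 0.0951 from limma). The ratio of KLF9 to KLF10 was 1.68, 1.77 and 1.44 in siC and 2.27, 2.74 and 2.07 in siMSI1, a description with no test, since the levels of both genes already fixed its separation.

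KLF6 (ENSG00000067082, chromosome 10 from 3775996 to 3785281, minus strand) was measured at 19.8, 21.5 and 18.8 FPKM in the siC libraries and 18.8, 20.3 and 16.8 FPKM in the siMSI1 libraries. The groups overlapped, and replicate 2 was the highest library in both. With 1483 to 2384 reads per library its log2 fold change was −0.11 (95% interval −0.31 to 0.10, adjusted p = 0.429 from limma), and it was −0.055 without siC replicate 2, −0.034 without siMSI1 replicate 3 and −0.17 without siMSI1 replicate 2. KLF2 (ENSG00000127528, chromosome 19 from 16324826 to 16328685, plus strand), a target of the ERK5 and MEF2 route that is best known in endothelium and resting lymphocytes, was measured at 1.32, 1.04 and 0.517 FPKM in the siC libraries and 0.773, 0.869 and 0.794 FPKM in the siMSI1 libraries. The siC libraries spread on both sides of the siMSI1 libraries. Its log2 fold change was −0.13 (95% interval −0.87 to 0.60, adjusted p = 0.795 from limma) on 15 to 40 reads, and without siC replicate 1 it was 0.12.

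KLF4 (ENSG00000136826, chromosome 9 from 107484852 to 107490482, minus strand), one of the reprogramming factors of pluripotency, had 0, 0 and 2 reads in siC and 1, 1 and 0 reads in siMSI1. Every library was under the floor of 3 reads, so no difference was detectable at this depth and no fold is given. IER3 (ENSG00000137331, chromosome 6 from 30743199 to 30744548, minus strand), an NF-κB-responsive regulator of apoptosis, had 3, 1 and 0 reads in siC and 1, 0 and 2 reads in siMSI1. It was at or under the floor in all libraries as well. IER2 (ENSG00000160888, chromosome 19 from 13150411 to 13154911, plus strand), a nuclear early response protein linked to cell motility, was by contrast measured at 16.0, 14.6 and 14.9 FPKM in the siC libraries and 15.1, 17.1 and 16.4 FPKM in the siMSI1 libraries. The groups overlapped in siMSI1 replicate 1, and the log2 fold change was 0.10 (95% interval −0.076 to 0.27, adjusted p = 0.388 from limma) on 658 to 811 reads, between 0.057 without siMSI1 replicate 2 and 0.14 without siMSI1 replicate 1. The lncRNA gene ENSG00000267598 lies on the opposite strand at IER2, at 0.806 to 2.21 FPKM, and IER3-AS1 lies opposite IER3 at 0.127 to 0.386 FPKM. Opposite EGR3 lies the lncRNA gene ENSG00000253125, at no more than 0.0505 FPKM in any library. The libraries were strand-specific, but whether the counting used the strand is not given in the sources used here, so reads of such pairs can be shared.

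**Figure D3:**
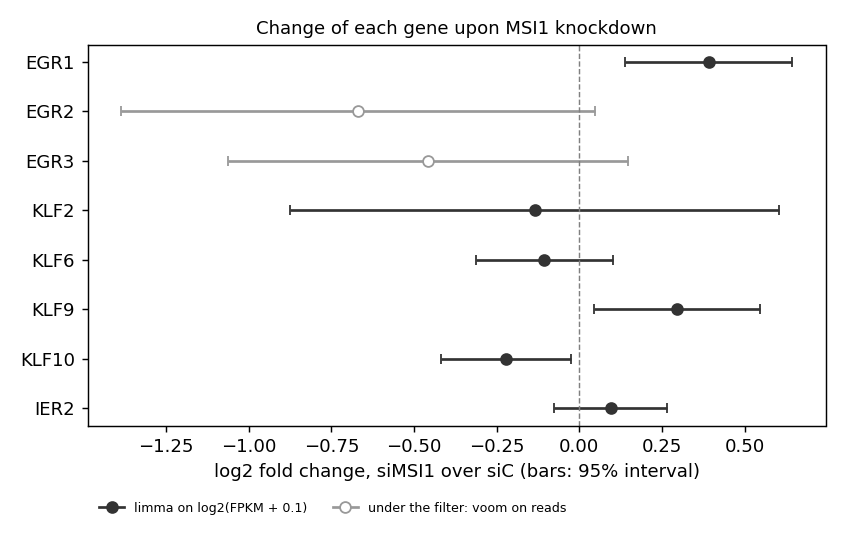
Log2 fold change of siMSI1 over siC with its 95% interval for 8 genes, filled for the 6 tested by limma on log2(FPKM + 0.1) and open for EGR2 and EGR3, which were under the filter and are drawn from voom on the recovered reads. The intervals of EGR1, KLF9 and KLF10 leave out 0 (from 0.14 to 0.64, 0.046 to 0.55 and −0.42 to −0.025), those of the other 5 do not, and KLF4 and IER3 are not drawn because all libraries were at or under 3 reads.

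Since MSI1 binds 3′UTRs at words with a UAG core, the longest annotated 3′UTR of each gene (GENCODE release 44) was searched for GUAGU and AUAGU. KLF9 held 11 of these words in 3172 bases, or 3.47 per kb, a density above that of 93.3% of 11281 tested protein-coding genes, whose median was 1.17 per kb and of which 69.7% held at least 1 word. KLF10 held 4 in 1348 bases (2.97 per kb) and EGR2 held 3 in 1211 bases (2.48 per kb). EGR1, KLF2, KLF4 and KLF6 held 1 each, EGR3 held 2, and IER2 and IER3 held 0. Of these genes with the highest densities, KLF9 was higher and KLF10 and EGR2 were lower in all siMSI1 libraries. KLF9 and KLF10 were not past the threshold, and EGR2 was under the filter. Whether the words bear on the levels was not tested. A stretch of the KLF9 3′UTR with 2 words, and 1 word each of the EGR1 and EGR2 3′UTRs, are shown as examples, with the words in capitals, on GRCh38.
KLF9, chr9:70385909-70385938, minus strand: accaacGUAGUuguauuaGUAGUucuauaa
EGR1, chr5:138469095-138469124, plus strand: aguuggaauguuGUAGUuaccuacugagua
EGR2, chr10:62812149-62812178, minus strand: aguguuaccuuuGUAGUcaaauuucagaua
The pentamer AUUUA, the core of AU-rich elements that mark short-lived mRNAs, occurred in the 3′UTRs of 9 of the 10 genes, all but IER2, and in 76.0% of the tested protein-coding genes. IER3 had the highest density with 6 in 903 bases. The median density of the tested protein-coding genes was 1.77 per kb. EGR1, EGR2, EGR3, KLF6 and IER2 lay below that median, and KLF2, KLF4, KLF9, KLF10 and IER3 above it. The AU-rich nonamer UUAUUUAUU was in none of the 10, and in 10.1% of the tested genes. These are matches of letters and not measured binding or decay.

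Around these genes, 6 lists of family members, early response genes, regulators and targets were read with the same test, in which 5.15% of all tested genes rose, 5.83% fell and the median log2 change was 1.5e-05. NAB2 and SMAD7 stand in 2 of the lists. Of the calls named here, those of KLF13, PHLDA1, NAB1, NR3C1, F3 and CDKN1A were lost with no filter on low genes (limma adjusted p-values from 0.0105 to 0.0256), and these and SP9 were lost with plain variance moderation (0.0104 to 0.0161). Of the 23 other EGR, KLF and SP zinc finger factors, 14 were tested, 3 fell and 0 rose, with a median log2 change of −0.24. SP8, a factor of forebrain and limb development, fell from 97.6 ± 6.56 to 53.8 ± 1.20 FPKM (mean ± SD, n = 3 each, log2 change −0.86, limma adjusted p = 0.000366). Its close relative SP9 had a log2 change of −0.57 (limma adjusted p = 0.00191), which was not past the threshold without siC replicate 1 (0.0140) or siC replicate 3 (0.0105). KLF13 went from 10.0 ± 0.147 to 7.03 ± 0.461 FPKM (SD, n = 3 each), with an adjusted p of 0.00319 from limma that, of the 6 fits leaving out 1 library, stayed past the threshold only in that without siMSI1 replicate 3 and reached 0.0222 without siC replicate 1. KLF16, at 28.7 ± 2.99 and 29.7 ± 2.52 FPKM (SD, n = 3 each), had a log2 change of 0.052 (limma adjusted p = 0.737). VIM, NES, SOX2 and CD44 were each also lower in every siMSI1 library than in every siC library, while GFAP was higher. Of all tested genes, 21.5% were lower and 21.4% higher in this way. The part of these markers in the changes above was not tested.

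Of the 27 other immediate-early and early response genes, 24 were tested, 3 rose and 1 fell, with a median log2 change of 0.19. BTG2, an antiproliferative early gene and p53 target, rose from 10.8 ± 0.238 to 31.0 ± 2.40 FPKM (mean ± SD, n = 3 each, log2 change 1.51, limma adjusted p = 0.000129). IER5L, a relative of the IER family, rose from 5.03 ± 0.417 to 14.4 ± 1.59 FPKM (mean ± SD, n = 3 each, limma adjusted p = 0.000247). Both calls held when any 1 library was left out. PHLDA1, which is induced by ERK signals, had a log2 change of 0.71 (limma adjusted p = 0.00648), a call that was lost whichever library was left out (0.0107 to 0.0296). MCL1, an antiapoptotic BCL2 family gene, fell from 92.7 ± 1.42 to 62.7 ± 3.19 FPKM (mean ± SD, n = 3 each, log2 change −0.57, limma adjusted p = 0.00101). The genes of this list that passed the test thus moved in both directions.

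**Figure D4:**
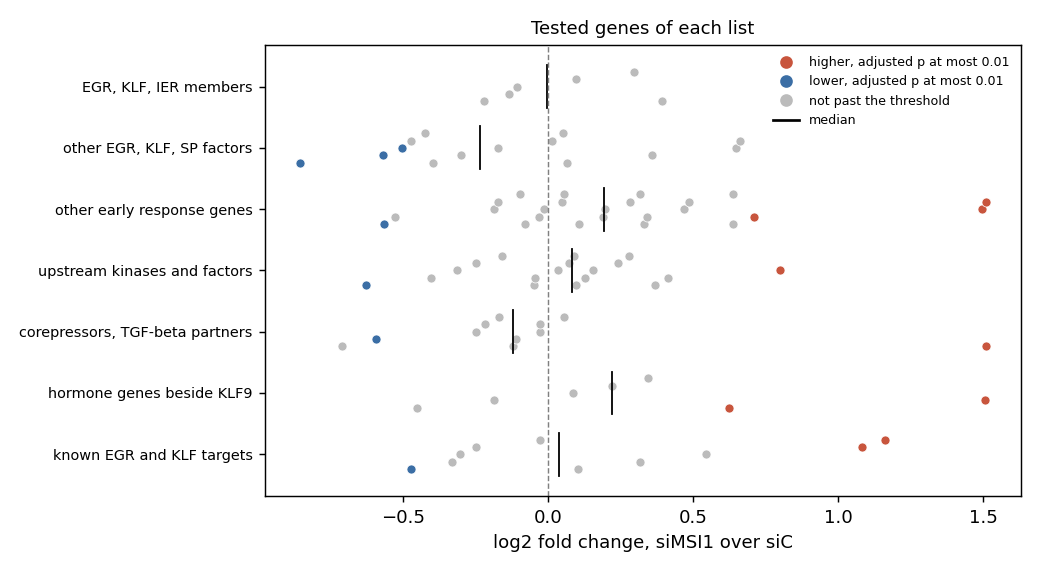
Log2 fold change of siMSI1 over siC for the tested genes of each list, one point per gene, with the vertical spread only for legibility and a black line at the median. Red and blue points are past an adjusted p of 0.01, of which there are 0 of 6 among the EGR, KLF and IER genes, 3 of 14 among the other zinc finger factors and 4 of 24 among the other early response genes.

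Of the 20 kinases and factors upstream, 18 were tested, 1 fell and 1 rose, with a median of 0.082. MEF2C, a factor downstream of ERK5, rose with a log2 change of 0.80 (limma adjusted p = 0.00226), a call lost without siC replicate 1 (0.0139), siMSI1 replicate 1 (0.0119) or siMSI1 replicate 2 (0.0112). The kinase gene MAP2K2 (log2 fold change 0.13, adjusted p = 0.364 from limma) and ELK1 (0.096, adjusted p = 0.478 from limma) were not past it. SRF, named although it is outside the rule for named genes, was at 19.6 to 21.6 FPKM in siC and at 19.1 to 21.3 FPKM in siMSI1.

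Of the 11 corepressors and TGF-β partners all were tested, 1 fell and 1 rose, with a median of −0.12. NAB1, an EGR corepressor, fell from 8.34 ± 0.314 to 5.51 ± 0.470 FPKM (mean ± SD, n = 3 each, log2 change −0.59, limma adjusted p = 0.00304), and was not past the threshold without siC replicate 1 (0.0194), siC replicate 2 (0.0137) or siC replicate 3 (0.0102). Its paralog NAB2, itself an EGR target and also outside the rule, was at 9.04 to 9.75 FPKM in siC and at 6.72 to 9.07 FPKM in siMSI1, with an adjusted p of 0.143 from limma. TGFBR2, the type II TGF-β receptor, rose from 1.87 ± 0.212 to 5.52 ± 0.701 FPKM (mean ± SD, n = 3 each, log2 change 1.51, limma adjusted p = 0.000429). SMAD7, the gene that KLF10 is known to repress, was at 19.3 ± 0.791 and 18.9 ± 0.409 FPKM (SD, n = 3 each), and the corepressor CTBP1 at 28.8 ± 0.629 and 28.3 ± 2.72 FPKM, with adjusted p-values of 0.795 and 0.840 from limma.

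Of the 8 glucocorticoid and thyroid hormone genes listed beside KLF9, 7 were tested, 2 rose and 0 fell, with a median of 0.22. DDIT4, a stress- and glucocorticoid-induced inhibitor of mTOR, rose from 6.44 ± 0.310 to 18.6 ± 2.12 FPKM (mean ± SD, n = 3 each, log2 change 1.51, limma adjusted p = 0.000230). NR3C1, the glucocorticoid receptor, had a log2 change of 0.62 (limma adjusted p = 0.00911), which stayed past the threshold only without siC replicate 2 among the fits leaving out 1 library (0.0426 without siC replicate 1). THRA (0.084, adjusted p = 0.456) and PER1 (0.22, adjusted p = 0.181) were not past it in limma. Of 14 known targets of EGR and KLF factors, 10 were tested, 2 rose and 1 fell, with a median of 0.039. PDGFA, a growth factor gene with EGR1 sites in its promoter, rose from 4.56 ± 0.452 to 10.3 ± 0.446 FPKM (mean ± SD, n = 3 each, log2 change 1.16, limma adjusted p = 0.000366). CDKN1A, a cell cycle inhibitor activated by KLF4, KLF6 and p53, rose by a log2 change of 1.08 (limma adjusted p = 0.00251), with adjusted p-values of 0.0113 without siC replicate 3, 0.0111 without siMSI1 replicate 1 and 0.0110 without siMSI1 replicate 2. F3, tissue factor, fell with a log2 change of −0.47 (limma adjusted p = 0.00378) and was not past the threshold without siC replicate 1 (0.0229), siC replicate 2 (0.0165), siC replicate 3 (0.0113) or siMSI1 replicate 2 (0.0131). TGFB1 was at 59.5 ± 4.90 and 74.4 ± 9.74 FPKM (SD, n = 3 each), with an adjusted p of 0.0641 from limma.

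The 5 genes whose levels followed EGR1 most closely over the 6 libraries, among 13039 tested genes with a mean of at least 1 FPKM, were TMEM41A, SMIM7, MELK, AC144652.1 and DLG5. Their Pearson correlations with EGR1 on log2(FPKM + 0.1) were 0.995, 0.986, 0.986, 0.986 and 0.984. The 6 libraries hold the 2 groups, so part of each value is the group difference, and with this many genes compared it is a description only. None of the 5 was past an adjusted p of 0.01 between the groups (0.042 to 0.225 from limma).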

How the data were processed

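mRNA-seq of KNS42 cells, 3 siC and 3 siMSI1 libraries, was deposited by the authors as 1 table of FPKM per gene and library. Per the labels and the methods of the study, reads were clipped (Cutadapt 1.14), aligned to GRCh38 (HISAT2 2.1.0) and counted on an Ensembl annotation (featureCounts 1.5.3). The deposited columns of log2 fold changes, p-values and false discovery rates (edgeR 3.18.1) hold the authors' comparison and were not used. Gene length was taken from the deposited table, and reads were recovered from FPKM and length. They were whole within 0.01 reads for 100% of values above 0, and 3 reads was taken as a floor, for counting error only.

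Genes averaging 0.5 FPKM or more were tested on log2(FPKM + 0.1) with limma 3.58.1 (R 4.3.3, eBayes with trend and robust, no block), adjusted by Benjamini-Hochberg with a threshold of 0.01. The code was tested on simulated data. Named were the 10 genes, MSI1, per list the genes past the threshold and otherwise those with the highest level, up to 4 a list, and the 5 genes most like EGR1. 1 gene of the upstream list that this rule names is not reported here. The members and lists were chosen with earlier results of these data known, so each list as a whole is given by its counts and median with no test, and single genes by the fit over all genes. Positions and 3′UTRs came from GENCODE release 44 (98.7% of gene IDs matched) and promoters from RefSeq. Alternatives were other added values, filters and scalings, plain variance moderation, voom on recovered reads (with trimmed mean of M-values scaling), a GC correction, a replicate block, an adjusted p of 0.05 and leaving out each library. Python 3.11.15 was used for the other steps.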

Additional observations from a re-analysis of the deposited data

How the results depend on the processing

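MSI1 kept its direction and stayed past the threshold in all 19 alternative fits, with log2 fold changes from −2.45 to −2.34. EGR1 and KLF9 stayed above 0, and KLF6 and KLF10 below 0, in all 19. KLF2, which 18 fits held, was −0.48 to 0.12 and above 0 only without siC replicate 1 (0.12). Of the named genes of the lists, KLF16 turned to −0.037 without siC replicate 2 and −0.013 without siMSI1 replicate 3, CTBP1 to 0.0052 without siMSI1 replicate 1 and 0.019 without siMSI1 replicate 2, and SMAD7 to 0.0051 without siC replicate 1. With 1 library left out these 3 genes ranged from −0.037 to 0.11, from −0.10 to 0.019 and from −0.053 to 0.0051. No scaling moved the median log2 fold change of all genes by more than 0.1.

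The number of the 10 genes past the threshold was 0, and 1 (EGR1) at an adjusted p of 0.05. Deviations from the group means of siC and siMSI1 libraries with the same replicate number correlated at −0.066, 0.078 and 0.083. Those of libraries with different numbers correlated at −0.144 to 0.070. These values do not settle whether the replicate numbers pair the libraries. With the replicate block 1 was called (EGR1, adjusted p = 0.00989), with the GC correction and the replicate block 2 (EGR1 and KLF9, 0.00881 and 0.00921), and with voom on recovered reads and the replicate block 2 (the same genes, 0.000654 and 0.000680). It was 0 in every fit with 1 library left out. The cause of these differences was not tested.

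Of the genes of the 6 lists, 16 were past the threshold. The number was 10 with no filter on low genes, 9 with plain variance moderation, 27 with voom, 26 with voom and no filter (chosen after the data were seen), 41 with voom and the replicate block, 29 with the GC correction, 30 at an adjusted p of 0.05, and 9 to 14 with 1 library left out (9 without siC replicate 1 or siC replicate 3). Over all genes 1655 were past the threshold (879 lower, 776 higher). In the same order of settings this was 792, 847, 2817, 2828, 4921, 3105, 3787 and 517 to 1603 (517 without siC replicate 1), and 2250 with the replicate block and 2547 with the GC correction and the replicate block.

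Depth limits KLF4 and IER3 (at most 3 reads per library), EGR2 (13 to 38 reads), EGR3 (23 to 64) and KLF2 (15 to 40). With 3 libraries per group, an exact permutation test of a single value cannot go below 0.1, and none is reported.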
